A study of Mus musculus with 8 samples.

Results

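Interferon response genes are the transcripts that cells switch on after an interferon binds its receptor. A set of 40 such mouse genes was followed in belly skin: 29 that are known mainly as targets of type I interferon and 11 that are known as targets of interferon gamma, many of which also answer to type I interferon. The genes were chosen by name. Of the 40 genes 38 had a probe set annotated to that gene alone, out of 18193 genes with such a probe set on the array. Isg15 shared its only probe set with another gene and Ifi44 had none, so neither has a value here. One member, Mx2, lay below the level filter, which left 37 members in the test, 26 of type I and 11 of the gamma class. Where a gene had several probe sets, the one with the highest mean over the animals was used.

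RNA came from belly skin of mice aged 8 months. The 4 hurpin transgenic animals were females 7 and 84 and males 11 and 17, and the 3 wildtype animals were males 26 and 28 and female 29. Hurpin is a human serine protease inhibitor family member that acts on cathepsin L, and the promoter that drives the transgene, the strain background and any littermate relation are not given in the sources used here. Each animal was measured on 1 array, except wildtype 29, whose 2 arrays were averaged. Values are log2 of the deposited signal intensity plus 21.8, so a difference of 1 is a doubling and no value can fall below 4.45. The number of animals limited the precision of each comparison.

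Type I interferons signal through Jak kinases to a complex that holds Stat2 and Irf9 and binds a DNA element called the interferon-stimulated response element (ISRE). Interferon gamma acts through another element, the gamma-activated site (GAS), and induces Irf1 as a second-wave factor that also reads ISREs. In skin these genes are known for their rise in viral infection and in inflammation driven by T cells, and as a basal programme in resting tissue.

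Skin markers were as the tissue label says, and RNA integrity was uneven. All 10 listed keratinocyte markers and all 8 fibroblast markers passed the level filter. All measured markers of adipocytes (5), skeletal muscle (8), mast cells (6) and hair (12) had differences above 0 (transgenic minus wildtype). Of these 4, 2, 1 and 0 reached an unadjusted p under 0.05, a level that 4.4% of all genes reached in that direction, and limma called 0. The fibroblast marker Fbln1, at -1.36, was lower without overlap, as were 3.89% of all genes. Of the fibroblast markers 5 lay above 0 and 3 below, with a median of 0.06. The macrophage marker C1qa stood at -2.07 with overlap, while 6 macrophage markers lay above 0 and 3 below (median 0.26). The Gapdh control probes give a 3'/5' ratio that rises when labelled targets are short. Transgenic 7, 84, 11 and 17 had ratios of 13.8, 17.2, 1.45 and 4.68, while wildtype arrays lay at 0.927 to 1.41. Its log2 mean was 2.67 ± 1.64 in transgenic and 0.15 ± 0.08 in wildtype animals (SD, n = 4 and 3). In a 2-sided exact permutation test 2 of the 35 splits of the animals gave a difference at least as large (p = 0.0571). This is the smallest p that 4 against 3 animals can give. Every transgenic animal lay above every wildtype animal, so adjustment for the ratio cannot fully separate it from the group. Within the transgenic group the ratio was highest in females 7 and 84, so sex and ratio cannot be told apart there. Over the tested members the arrays of wildtype 29 differed from each other by a median of 0.17 and by at most 0.82, in Gbp8.

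With all animals in, none of the 37 tested members separated transgenic from wildtype skin in its most abundant probe set. None passed the test over the whole array. Of the 37 tested members 0 passed an adjusted p under 0.05 in limma, beside 4 of 27022 probe sets over the whole array (0.0148%). At an unadjusted p under 0.05 there were 2 members, Gbp2b and Ifi44l, both higher in transgenic skin, beside 4.4% of all 13559 genes tested that were higher and 4.6% that were lower at that level. In 0 members did all transgenic animals lie on 1 side of all wildtype animals, beside 5.16% of genes higher and 3.89% lower without overlap. Both counts moved with single animals. Leaving out transgenic 7 or wildtype 29 left 1 member at an unadjusted p under 0.05, and leaving out wildtype 26 gave 4. The count without overlap was 5 without wildtype 26, 4 without wildtype 28, 3 without wildtype 29 and 2 each without transgenic 11 or 84. Fewer animals make separation easier, and no share over all genes is given here for these settings.

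The type I members had a median log2 difference (transgenic minus wildtype) of -0.04, with 9 above 0 and 17 below. The gamma-induced members had a median of -0.24, with 5 above 0 and 6 below. Both medians moved with single animals. The gamma-induced median was 0.025 without transgenic 84, -0.024 without wildtype 26, -0.057 without wildtype 29 and -0.39 without wildtype 28. The type I median was 0.053 without transgenic 84, 0.065 without wildtype 26, -0.17 without wildtype 28, -0.11 without transgenic 17 and -0.074 without transgenic 7. After adjustment for the Gapdh ratio the medians were 0.033 for type I and -0.021 for gamma-induced members, and 15 of the 37 members turned sign. With transgenic 7 and 84 left out 13 of the 37 turned sign. These are the females of their group, so that setting compares transgenic males with wildtype animals of both sexes. Over all genes tested the median was 0.05. The size of the difference was under 0.5 in 33 of the 37 members, the others being Gbp2b, Ifi44l, Cxcl9 and Iigp1. In 36 of 37 members the 3 wildtype animals spread over a wider range than the difference between the groups, the exception being Lgals3bp. This is not particular to the members. Over all genes tested the median wildtype range was 0.47 and the median size of the difference 0.20. In bulk skin, fewer cells of a type and less RNA per cell cannot be told apart, for these and for all values that follow.

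**Figure D1:**
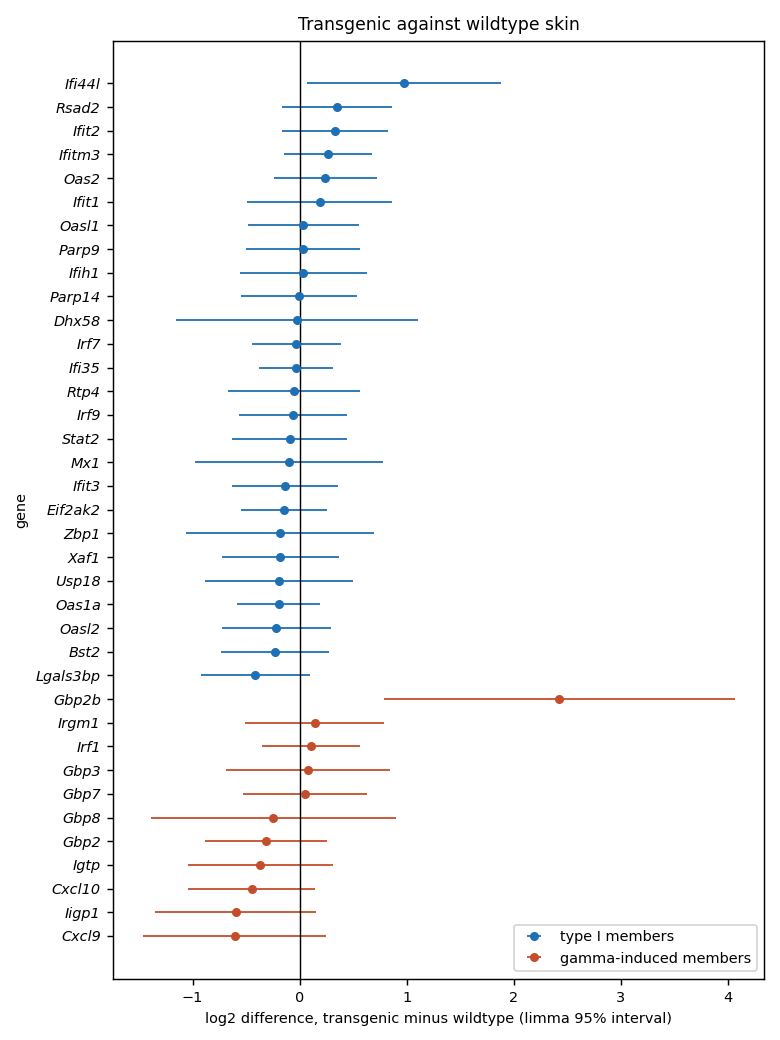
Log2 difference (transgenic minus wildtype, x axis) of each of the 37 tested members (y axis), with the limma 95% confidence interval as a bar, type I members in blue and gamma-induced members in red. Only the intervals of Ifi44l and Gbp2b lie off 0, and 33 of the 37 points lie within 0.5 of it.

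In their most abundant probe sets the sensors of foreign nucleic acid had differences between -0.18 and 0.03. These changed after adjustment for the Gapdh ratio. Ifih1, the helicase MDA5 that detects long double-stranded RNA, ranged from 9.95 to 10.91 in transgenic and from 10.16 to 10.66 in wildtype animals. Its log2 difference was 0.03 with a 95% interval from -0.56 to 0.63 (limma adjusted p = 0.971). Zbp1, a sensor of left-handed nucleic acid that can start necroptosis, was highest in wildtype 26 and transgenic 17, at 8.39 and 8.38, and lay between 7.001 and 7.66 in the other animals (log2 difference -0.18). Dhx58, a helicase that tunes the RNA sensors, was lowest in transgenic 84, at 5.23, and lay between 5.99 and 7.29 elsewhere (log2 difference -0.03). The other probe set of Zbp1, below the level filter, gave 0.74. Those of Dhx58 gave -0.22 and, below the filter, 0.05. After adjustment for the Gapdh ratio the most abundant probe sets of Dhx58, Zbp1 and Ifih1 stood at 0.79, 0.35 and -0.25. Without transgenic 7 and 84 they stood at 0.53, 0.28 and -0.058.

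Eif2ak2, the kinase PKR that halts translation on double-stranded RNA, had the smallest p of the sensors. Its most abundant probe set measured 7.89, 7.94, 8.13 and 8.20 in transgenic 7, 84, 11 and 17 and 8.35, 8.09 and 8.11 in wildtype 26, 28 and 29. Transgenic 7 and 84, the females of the group and those with the highest Gapdh ratios, were the lowest. The difference was -0.14 (limma adjusted p = 0.777), 0.029 once the Gapdh ratio entered the model and -0.11 with sex as a covariate. Its other probe sets gave larger differences, -0.60 and -0.73. In both of them every transgenic animal lay below every wildtype animal, beside 3.89% of all genes lower without overlap. Transgenic 84 was the lowest in both, at 7.03 and 5.11. How far target length or sex enters these values was not tested beyond these covariates.

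The transcription factors of the pathway had differences between -0.09 and 0.10 in their most abundant probe sets. Irf1 measured 10.04, 9.86, 10.12 and 10.40 in transgenic 7, 84, 11 and 17 and 10.39, 9.77 and 9.85 in wildtype 26, 28 and 29, so that transgenic 17 and wildtype 26 stood at the top and the other animals below (log2 difference 0.10, SE 0.202, adjusted p = 0.867). Irf7, which amplifies type I interferon production, gave -0.03 with an interval from -0.45 to 0.39. Irf9 and Stat2, members of the complex that binds the ISRE, gave -0.06 and -0.09. A second probe set of Stat2 gave -0.64 (limma adjusted p = 0.461). In that probe set transgenic 7 and 84 were lowest, at 6.84 and 6.41, against 7.21 to 7.88 in the other animals.

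The classical antiviral effectors gave mixed signs. Usp18, the protease that removes Isg15 from proteins and also damps the type I receptor, measured 8.63, 8.76, 9.01 and 9.58 in transgenic 7, 84, 11 and 17 and 9.74, 9.14 and 8.68 in wildtype 26, 28 and 29. Transgenic 17 and wildtype 26 again stood highest, and the difference was -0.19 (adjusted p = 0.834). Among the IFIT genes, whose proteins bind foreign RNA ends, Ifit2 had the smallest p. Ifit2 stood at 8.70, 8.57, 9.07 and 8.91 in transgenic 7, 84, 11 and 17, against 8.69, 8.06 and 8.68 in wildtype animals, so the low value was that of wildtype 28 (log2 difference 0.33, adjusted p = 0.568). It was 0.64 after adjustment for the Gapdh ratio and 0.13 without wildtype 28. Ifit1 and Ifit3 gave 0.19 and -0.14, or -0.51 and -0.17 after the same adjustment.

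The OAS genes encode enzymes that activate RNase L and their relatives. Oas1a measured 9.26, 9.07, 8.99 and 9.21 in transgenic 7, 84, 11 and 17 and 9.61, 9.23 and 9.15 in wildtype 26, 28 and 29. Wildtype 26 was highest and the ranges of the groups overlapped (log2 difference -0.20, adjusted p = 0.678). Oas2, Oasl1 and Oasl2 gave 0.24, 0.04 and -0.22.

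Ifi44l, a relative of Ifi44 with a known antiviral role, was the type I member with the smallest p. It measured 8.92, 7.86, 8.34 and 8.97 in transgenic 7, 84, 11 and 17 and 8.27, 6.74 and 7.63 in wildtype 26, 28 and 29. Transgenic 7, 11 and 17 exceeded all wildtype animals, transgenic 84 lay below wildtype 26, and wildtype 28 was the lowest of all. The log2 difference was 0.97 with a 95% interval from 0.07 to 1.88 (limma adjusted p = 0.406). The other probe sets of the gene gave 1.20 and 0.90. In the first of these wildtype 28 was again lowest, at 4.90, near the floor of the scale. In the second, which lay below the level filter, transgenic 11 and 17 stood at 6.27 and 6.42 and the other 5 animals between 4.57 and 4.82. Without wildtype 28 the difference was 0.57.

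Among the other effectors Rsad2, the enzyme viperin, gave 0.35, with its other probe sets at -0.02 and 0.65. Ifitm3, a membrane protein that blocks viral entry, gave 0.26, and Bst2, the tether that holds budding virus, gave -0.23. Mx1, a dynamin-like antiviral GTPase, was lowest in transgenic 84, at 5.98, and lay between 6.80 and 7.51 elsewhere (log2 difference -0.10, or 0.71 after adjustment for the Gapdh ratio). Mx2 stood between 4.88 and 5.34 in the 7 animals, near the floor. Ifi35, a partner of the interferon-induced protein Nmi, measured 11.74, 11.70, 11.74 and 12.01 in transgenic 7, 84, 11 and 17 and 12.05, 11.61 and 11.83 in wildtype 26, 28 and 29, with transgenic 17 apart from the rest of its group (log2 difference -0.03). Its other probe sets gave -0.48 and -0.41. Parp9, Parp14, Rtp4 and Xaf1 lay between -0.18 and 0.03 in their most abundant probe sets. Lgals3bp, a secreted glycoprotein that binds galectin, had the largest negative value of the type I class, -0.41 (adjusted p = 0.498). Its low values were those of transgenic 7 and 84, 9.41 and 9.60, against 10.12 to 10.36 in the other animals, and the difference was -0.075 without those animals and 0.15 after adjustment for the Gapdh ratio.

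**Figure D2:**
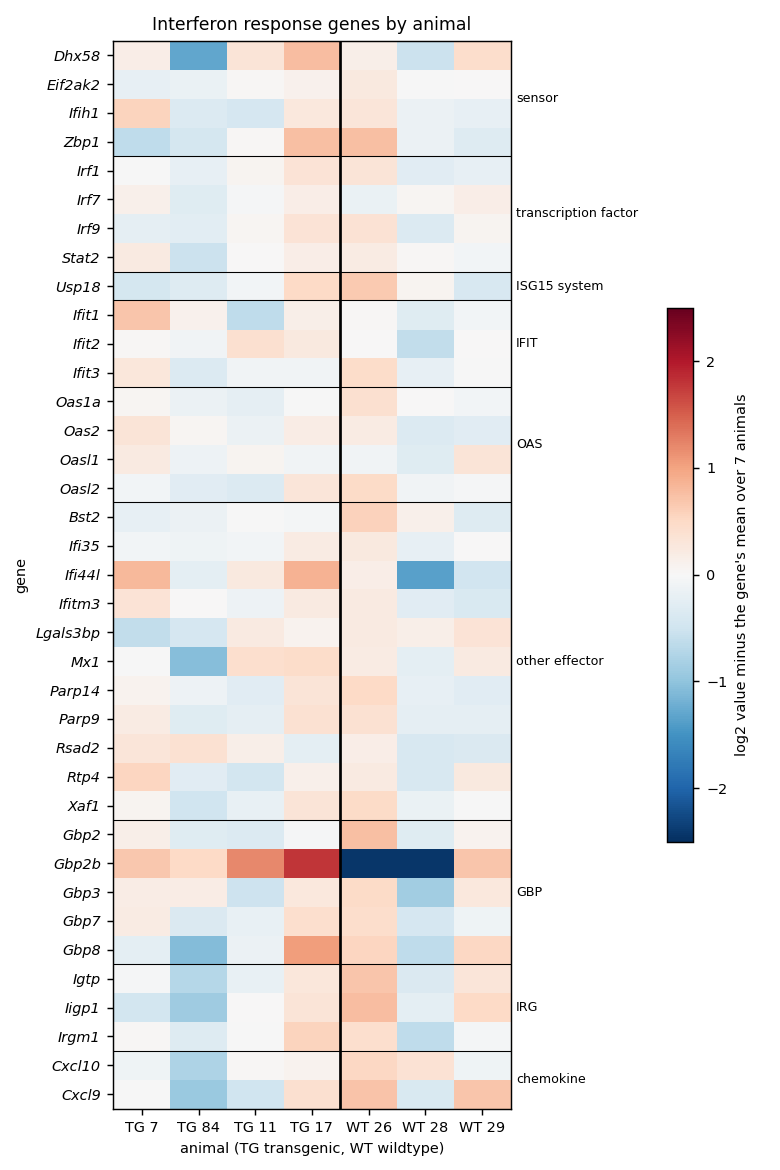
Each row is 1 of the 37 tested members, grouped by role, and each column 1 animal, with transgenic animals left of the black line; colour is the log2 value minus the gene's own mean over the 7 animals. Wildtype 26 and transgenic 17 are the reddest columns, transgenic 84 and wildtype 28 the bluest, and the Gbp2b row has its blue cells in wildtype 26 and 28.

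The guanylate-binding proteins are large GTPases that attack vacuoles holding bacteria and parasites. Gbp2b, also known as Gbp1, had the largest difference of all members. It measured 9.33, 9.16, 9.86 and 10.46 in transgenic 7, 84, 11 and 17. Wildtype 26 and 28 stood at 6.23 and 6.24, while wildtype 29 stood at 9.36, within the transgenic range. The wildtype group was thus split, with its males low and its female high, and the transgenic group was not. Transgenic males 11 and 17 had the highest values of all animals. The part of sex in the split was not tested beyond a covariate. As deposited intensity, Gbp2b read 53.5 and 53.9 in wildtype 26 and 28, 732.8 and 549.3 on the arrays of wildtype 29, and from 551.6 to 1384.4 in transgenic animals.

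The log2 difference of Gbp2b was 2.42 (SE 0.722, 95% interval from 0.785 to 4.06, limma adjusted p = 0.325). Without wildtype 29 it was 3.46 and passed the threshold (limma adjusted p = 0.0494, and from 0.0494 to 0.999989 over all alternatives). That setting drops the only wildtype animal within the transgenic range and leaves only males in the wildtype group. No share over all probe sets is given here for it. Without transgenic 17 and wildtype 26 the difference was 1.65, and after adjustment for the Gapdh ratio 2.96. With pseudocounts of 5.45 and 87.2 it was 2.64 and 1.89. With sex as a covariate it was 2.31. The gene has 1 probe set, so no other reading of it was at hand.

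The neighbours of Gbp2b in the genome did not share its split. In RefSeq's gene order on assembly GRCm38.p6 the coding genes Gbp5, Gbp7 and Gbp3 precede Gbp2b and Gbp2 follows it, and Gbp5 has no value here. Gbp3, next to Gbp2b, measured 9.47, 9.48, 8.76 and 9.56 in transgenic 7, 84, 11 and 17 and 9.76, 8.42 and 9.54 in wildtype 26, 28 and 29. Its low animals were transgenic 11 and wildtype 28, and its log2 difference was 0.08 with an interval from -0.69 to 0.85. Gbp2, on the other side, measured 10.64, 10.21, 10.17 and 10.47 in transgenic and 11.26, 10.19 and 10.60 in wildtype animals, with wildtype 26 highest (log2 difference -0.31, adjusted p = 0.651). The most abundant probe set of Gbp7 gave 0.05. A second probe set of Gbp7 gave -0.82 (limma adjusted p = 0.337). All transgenic animals, at 6.56 to 7.34, lay below all wildtype animals, at 7.51 to 7.94, beside 3.89% of all genes lower without overlap. Gbp8, which lies in another cluster, gave -0.24 with an interval from -1.38 to 0.90. After adjustment for the Gapdh ratio Gbp3 stood at -0.42 and Gbp8 at 0.33.

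**Figure D3:**
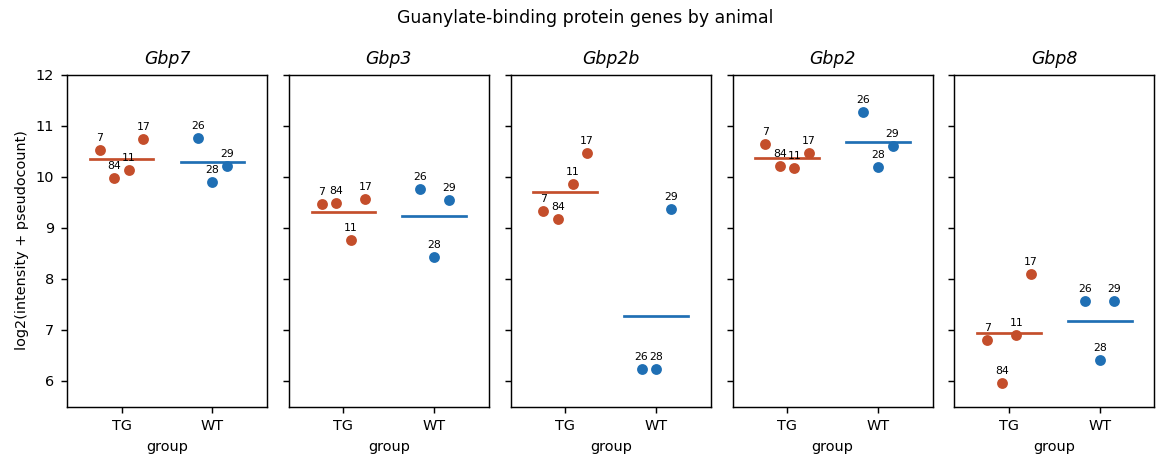
Log2 value of 5 guanylate-binding protein genes (y axis) in each animal, transgenic (TG) in red and wildtype (WT) in blue, with the animal's number beside its point and the group mean as a line. In Gbp2b wildtype 26 and 28 lie at 6.23 and 6.24, apart from the other 5 animals at 9.16 to 10.46, while in Gbp7, Gbp3, Gbp2 and Gbp8 the groups overlap.

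The promoters of these neighbours were set side by side because the genes lie together yet gave different patterns across the animals. RefSeq promoter windows on GRCm38.p6, from 250 bases before to 50 bases after a start, were given for 29 of the 40 members. The ISRE core was searched as GAAANNGAAA, or TTTCNNTTTC on the other strand, and the GAS core as TTCNNNGAA, which reads alike on both strands. At least 1 ISRE match was found in 17 of the 29 members (58.6%), beside 3.99% of 27025 genes. A GAS match was found in 9 of 29 (31.0%), beside 9.55% of all genes. By class, ISRE matches were present in 10 of 20 type I members and 7 of 9 gamma-induced members, and GAS matches in 6 and 3. In Bst2 and Ifitm3 an ISRE match overlapped a GAS match. Shown here are the stretches around the ISRE letters of 4 neighbouring genes and of Ifit1, with the matches in capitals, 5′ to 3′ on the plus strand. They lie at chr3:142530258-142530317 (Gbp7), chr3:142559974-142560039 (Gbp3), chr3:142594685-142594744 (Gbp2b), chr3:142620579-142620638 (Gbp2) and chr19:34640760-34640838 (Ifit1), all before the annotated start.
Gbp7: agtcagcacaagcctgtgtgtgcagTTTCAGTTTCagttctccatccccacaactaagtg
Gbp3: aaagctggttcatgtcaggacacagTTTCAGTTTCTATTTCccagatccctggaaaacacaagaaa
Gbp2b: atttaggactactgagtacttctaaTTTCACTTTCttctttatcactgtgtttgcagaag
Gbp2: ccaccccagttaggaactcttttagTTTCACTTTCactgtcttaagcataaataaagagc
Ifit1: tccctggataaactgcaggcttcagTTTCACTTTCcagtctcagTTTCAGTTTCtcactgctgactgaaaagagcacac
Counted from the annotated start, the first ISRE match began at -137 in Gbp2b, farther out than in Gbp2, Gbp7 and Gbp3, where it began at -59, -53 and -45. Ifit1 holds a pair of matches. The letters are those of the reference strain and say nothing of the sequence in these animals.

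The immunity-related GTPases and the chemokines lay lower in transgenic skin in 4 of 5 genes, without passing a test. Iigp1, a GTPase that coats parasite vacuoles, measured 9.82, 9.40, 10.28 and 10.60 in transgenic 7, 84, 11 and 17 and 11.06, 10.03 and 10.78 in wildtype 26, 28 and 29 (log2 difference -0.60, adjusted p = 0.505). Its other probe set gave -0.08. Igtp gave -0.37 and Irgm1, a regulator of the other GTPases, 0.14. Cxcl10, a ligand of the chemokine receptor Cxcr3 found on T cells, measured 8.25, 7.59, 8.40 and 8.46 in transgenic 7, 84, 11 and 17 and 8.88, 8.74 and 8.25 in wildtype 26, 28 and 29. The low value was that of transgenic 84 (log2 difference -0.45, 95% interval from -1.05 to 0.15, adjusted p = 0.526). Cxcl9, another Cxcr3 ligand, gave -0.61 and from its other probe set -0.43. After adjustment for the Gapdh ratio Iigp1 and Cxcl10 both stood at -0.02 and Cxcl9 at -0.50.

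**Figure D4:**
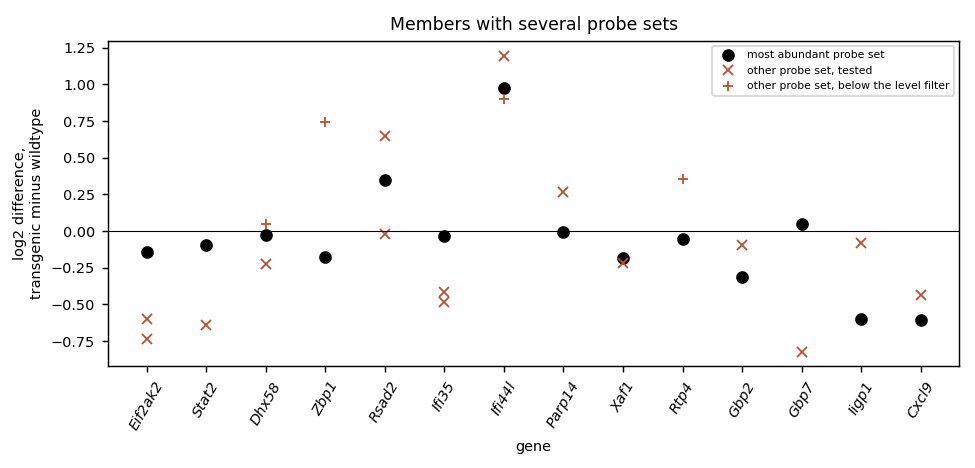
Log2 difference (transgenic minus wildtype, y axis) of the 14 members with several probe sets (x axis), with the most abundant probe set as a black dot and the others in red (crosses where tested, plus signs below the level filter). The 3 probe sets of Ifi44l lie together at 0.90 to 1.20, while the second probe set of Gbp7 lies at -0.82 against 0.05 for the first.

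Animals differed within each group, and many of the interferon genes varied together from animal to animal. The value of each member was set against its own mean over the 7 animals, and the median of these deviations was taken per animal. For the type I members it was 0.24 in wildtype 26 and 0.21 in transgenic 17, 0.11 in transgenic 7, -0.04 and -0.05 in wildtype 29 and transgenic 11, -0.21 in wildtype 28 and -0.27 in transgenic 84. For the gamma-induced members without Gbp2b it was 0.52 in wildtype 26, 0.33 in transgenic 17, 0.18 in wildtype 29, -0.02 in transgenic 7, -0.17 in transgenic 11, -0.37 in wildtype 28 and -0.53 in transgenic 84. With Gbp2b, which was set aside after its values were seen, the gamma-induced medians of transgenic 84, wildtype 28 and wildtype 29 were -0.35, -0.38 and 0.26, so that wildtype 28 became the lowest animal. Each group thus held high and low animals in both classes, and the ranges of the groups overlapped. Wildtype 26 was the highest animal in 19 of the 37 members and transgenic 17 in 8. The lowest animal was transgenic 84 in 12 members, wildtype 28 in 11 and transgenic 11 in 7. Over all genes tested the same medians lay between -0.02 and 0.04.

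As a description over 7 animals, the mean pairwise Pearson correlation was 0.37 among the 26 type I members, 0.66 among the 10 gamma-induced members without Gbp2b (0.53 among all 11), 0.50 between type I members and those 10 and 0.0073 among all genes tested. The points share their arrays and the scaling of each array. Gbp2b went along with few of the others. Its correlation was highest with Ifit2, at 0.72, and Ifi44l, at 0.60, and lowest with Bst2, at -0.74.

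Markers of several cell types moved with the same animals. Of the listed markers 6 of 6 for leukocytes, 9 of 9 measured for macrophages and 8 of 12 measured for T and natural killer cells passed the level filter, with Cd4, Cd8b1, Gzmb and Ncr1 below it. The median deviation of the leukocyte markers was highest in wildtype 26, at 0.71, and transgenic 17, at 0.43, and that of T and natural killer markers likewise, at 0.51 and 0.39. Wildtype 29 had the lowest values of both, -0.49 and -0.39, although its gamma-induced members stood at 0.18. The mean log2 level of the T and natural killer markers ran from 7.85 to 8.26 in transgenic and from 7.56 to 8.46 in wildtype animals. Endothelial and fibroblast markers were also highest in wildtype 26, at 0.45 and 0.34, and transgenic 17, at 0.28 and 0.16. Hair shaft and root sheath keratins, 12 of 12 measured, deviated by -5.24 in wildtype 26 and -2.04 in transgenic 17 and by 0.62 to 1.99 in the other 5 animals. The part of these differences in the interferon values was not tested. Without transgenic 17 and wildtype 26, a setting chosen after seeing the data, limma called 0 members (3 at an unadjusted p under 0.05). No share over all genes is given here for that setting. Its type I median was 0.0036 and its gamma-induced median -0.06.

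**Figure D5:**
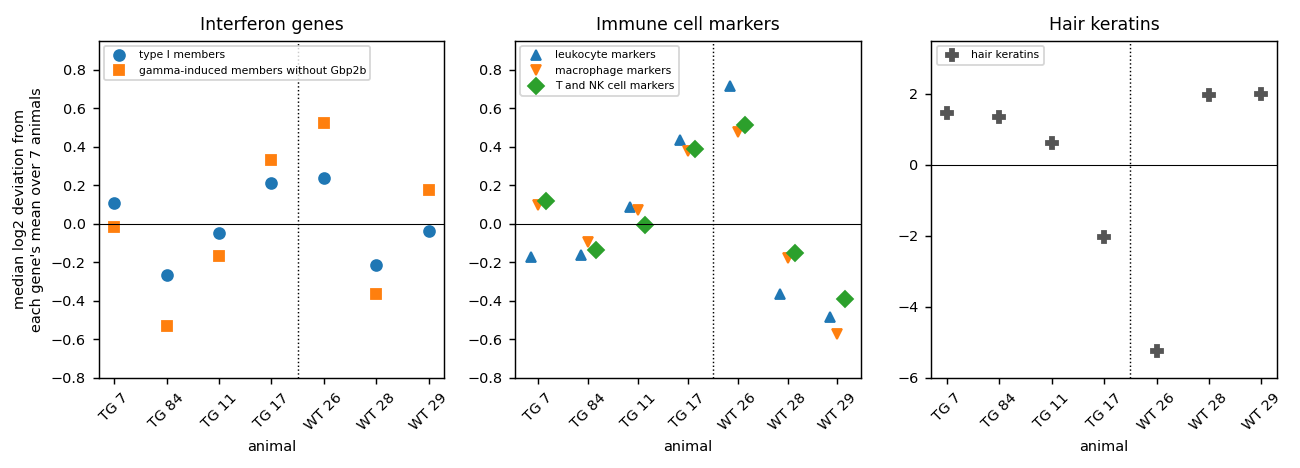
Median log2 deviation from each gene's mean over the 7 animals (y axis) in each animal (x axis; transgenic left of the dotted line), for interferon genes, immune cell markers and hair keratins. Wildtype 26 and transgenic 17 are highest in the first panels and lowest in hair keratins, at -5.24 and -2.04; the axis of the hair panel is wider.

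The genes upstream of the members, from interferons and receptors to adaptors and inhibitors, showed no call. Of 38 listed genes 33 had a probe set of their own and 29 passed the filter. Limma called 0 of them and the median log2 difference was 0.08. An unadjusted p under 0.05 was reached by 2 higher genes and 0 lower ones, beside 4.4% and 4.6% of all genes. Separation without overlap was seen in 1 higher and 2 lower genes, beside 5.16% and 3.89% of all genes. Ifng, Ifna2, Ifna4 and Socs1 lay below the filter, with Ifng at 4.72 to 6.42 over the animals. Cgas, the DNA sensor that makes cyclic GMP-AMP, measured 8.39, 8.46, 8.11 and 8.43 in transgenic 7, 84, 11 and 17 and 8.03, 7.13 and 7.63 in wildtype 26, 28 and 29. The groups did not overlap (log2 difference 0.75, limma adjusted p = 0.338), but its other probe set gave -0.03. Irf2, which competes with Irf1 for its sites, gave 0.61 (adjusted p = 0.390). Jak1, a kinase of the interferon receptors, gave -0.49, while its other probe sets gave 0.30 and -2.04. Pias1 and Irf5 were lower without overlap. Ifna1, which has near-identical relatives whose RNA its probes may share, gave 0.87, with wildtype 26 at 4.82 and the other animals between 6.61 and 7.11.

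Further known interferon targets were counted in the same way. Of 57 listed genes 44 had a probe set of their own and 42 passed the filter, with a median log2 difference of 0.08, 26 above 0 and 16 below. Limma called 0 of them, and an unadjusted p under 0.05 was reached by 2 higher genes and 1 lower gene. Over all genes these shares were 4.4% and 4.6%. Separation without overlap was seen in 1 higher and 1 lower gene, beside 5.16% and 3.89% of all genes. Slfn5, a schlafen family member, measured 5.95, 4.75, 6.68 and 6.87 in transgenic 7, 84, 11 and 17 and 8.88, 8.25 and 8.33 in wildtype 26, 28 and 29, without overlap (log2 difference -2.43, limma adjusted p = 0.229). The other tested probe set of Slfn5 gave 0.88. Cmpk2, a mitochondrial nucleotide kinase next to which Rsad2 is known to lie, was higher without overlap, at 8.72 to 8.98 against 7.78 to 8.53 (log2 difference 0.62, adjusted p = 0.351), and its other probe set, below the filter, gave -0.19. Tor3a gave 0.72, with -0.29 and 0.08 from its other probe sets, and Ddx60, a helicase that assists RNA sensing, gave 0.44.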

How the data were processed

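The authors deposited linear signal intensity values per probe set, computed by MAS5 per the submitters' processing notes (version not given in the sources used here) after one-cycle labelling per the labels. Each array has the same mean, 500.003, once the lowest and highest 2% are left out. Detection calls were not used here. Of 45101 probe sets 64 were controls; of the others 34945 had 1 gene symbol, 932 several and 9160 none, and symbols were updated through RefSeq (GRCm38.p6). A pseudocount of 21.8 (the 20th percentile of intensity) was added before the deposited values were taken to log2, and the arrays of wildtype 29 were averaged. Probe sets with a mean below the 40th percentile (6.45) were left out. The remaining 27022 went into limma 3.58.1 under R version 4.3.3 (group only, trended empirical Bayes, 2-sided, Benjamini-Hochberg adjustment over all of them), tested on simulated data. Whether animals were littermates is not known, and the fit took them as independent. The p-values set the group difference against the spread between these animals, moderated over all probe sets tested.

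Full values were given for members with an unadjusted p under 0.05 or no overlap, for those with 1 transgenic animal apart, and for the member with the smallest p in each role. In each further list the 4 genes with the smallest p were named, with counts for the rest. Members, gene lists and tests were chosen with earlier results of these data known. There were 22 alternative settings of normalization, pseudocount, filter, model, covariate, probe set choice and animals left out. Python 3.11.15 made summaries and figures.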

Additional observations from a re-analysis of the deposited data

Results flagged for a closer look

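In 2 of the 37 tested members 1 transgenic animal stood far from the other transgenic animals, measured as its gap to the nearest animal over the whole range of the group. In Ifi35 transgenic 17 stood at 12.01 and the others between 11.70 and 11.74. In Gbp3 transgenic 11 stood at 8.76 and the others between 9.47 and 9.56. By chance about 1 in 20 groups holds such an animal, which is close to this count. The wildtype group of 3 was not examined in this way.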

How the results depend on the processing

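Limma called 0 members in 21 of the 22 alternative settings, with 1 call (Gbp2b) without wildtype 29. Leaving out animals thus gave 0 to 1 calls. The fit without wildtype 29 has only males in its wildtype group, and no share over all probe sets is given here for it. At an unadjusted p under 0.05 the count was 2 of 37 in the reported fit, 1 after adjustment for the Gapdh ratio, 1 with the second array of wildtype 29 only and 1 with transgenic 7 and 84 left out, and 1 to 4 with an animal left out. Members without overlap numbered 0, but 1 after quantile normalization, 1 with the second array of wildtype 29 and 2 with a gene's probe sets averaged. There were 4 with transgenic 7 and 84 left out and 5 with transgenic 17 and wildtype 26 left out (a setting chosen after seeing the data). With an animal left out there were 0 to 5. Fewer animals make separation easier. No share over all genes is given here for either count under these settings, including those that kept all animals. The medians ran from -0.17 to 0.07 for type I and from -0.39 to 0.02 for gamma-induced members, ends that came from single animals left out, and both turned sign, though within the spread between animals. Of the 11 members recomputed under every setting, Gbp2b, Ifi44l, Ifit2, Oas1a, Iigp1 and Cxcl10 kept their sign throughout. Among these 11 the sign turned after adjustment for the Gapdh ratio in Eif2ak2 (0.029), Gbp3 (-0.42), Ifi35 (0.0093) and Usp18 (0.12), with transgenic 7 and 84 left out in Gbp3 (-0.080), Ifi35 (0.044) and Usp18 (0.11), and with transgenic 17 and wildtype 26 left out in Ifi35 (0.0070). With an animal left out the difference ran from -0.33 to 0.34 in Gbp3, -0.14 to 0.078 in Ifi35, -0.013 to 0.30 in Irf1 and -0.45 to 0.084 in Usp18. The cause was not tested. Low signal limits Mx2, Dhx58 and the other probe sets near the floor of 4.45.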

Other observations

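The split of the wildtype animals seen in Gbp2b was looked for in all 13559 genes tested, after the values had been seen. Wildtype 26 and 28 were the males of that group and wildtype 29 its female. In 2 genes, Gbp2b and Trim12a, wildtype 26 and 28 both lay at least 2 below every other animal on the log2 scale, and in 0 genes did both lie at least 2 above. Trim12a, of a tripartite motif family with antiviral members, stood at 4.56 and 4.71 in wildtype 26 and 28, at 7.22 in wildtype 29 and between 8.31 and 8.98 in transgenic animals. A second, dimmer probe set that was not tested did not show the split, with 4.97 and 4.66 in wildtype 26 and 28, 5.65 in wildtype 29 and 4.83 to 6.25 in transgenic animals.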
